A study of Mus musculus with 8 samples.

Results

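The 41 kinesin genes described here are the protein-coding rows of the expression table whose symbol is Kif followed by a number, with or without a further letter and digit, or Kifc followed by a digit, out of 54532 genes and 22046 protein-coding genes in all. RNA was measured in whole testes of 8 C57BL/6J mice in which spermatogenesis had been synchronized by blocking retinoic acid (RA) synthesis and then injecting RA on postnatal day 9, so that all testes were collected 11.5 days after RA (RA11.5), at mid-late pachytene by the study's staging. The 4 control mice, named Sync-Spdya fl/fl, carried 2 floxed Spdya alleles without Cre, while the 4 mice of the other group, named Sync-Spdya cKO and here cKO, were Spdya fl/fl;Ddx4-CreERT2, in which tamoxifen activates a recombinase expressed from the germ cell gene Ddx4 and an exon of Spdya is removed. All 8 mice, the controls included, received the same block, RA and tamoxifen, with injections that the labels place at RA7.5 and RA8.5. The study sequenced these testes to ask whether persistent synapsis of the X and Y chromosomes disturbs the silencing of sex chromosome genes in meiosis, and here the comparison is followed through 1 family of motor proteins.

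Kinesins are motors that use ATP to step along microtubules or to take microtubule ends apart. Some build and move the spindle, carry chromosomes and complete cytokinesis, others serve cilia, flagella and centrioles, and the rest carry vesicles, mitochondria and other cargo. In the testis the spindle motors act in dividing spermatogonia and in the meiotic divisions that follow pachytene, and the ciliary motors contribute to the sperm tail that spermatids build later. By these known roles the 41 genes were divided into 14 spindle kinesins, 9 ciliary kinesins and 18 transport and other kinesins.

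Of the 41 genes, 36 had a mean above 1 FPKM in both groups and were tested, 13 of 14 spindle, 8 of 9 ciliary and 15 of 18 transport kinesins. FPKM is the number of sequenced fragments on a gene per kilobase of gene length, scaled to the size of the library, so levels can be compared between genes. The 5 genes below the filter were Kif2b, Kif19a, Kif26b, Kif28 and Kif12. Kif12, known from kidney, was listed at 0 in 7 libraries and had 1 fragment in cKO replicate 3. Kif28 had at most 2 fragments in a library, and Kif2b, a spindle microtubule depolymerase, at most 5. The chromosome 18 genes Kif5b and Kif20a, a cargo motor and a cytokinesis motor, were the most abundant transport and spindle members.

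The libraries held 13978342 to 19583091 fragments on genes. Spdya itself, over its whole length, had 20.8, 21.0, 23.8 and 19.7 FPKM in the control libraries and 30.5, 22.2, 26.1 and 17.7 FPKM in the cKO libraries (log2 fold change 0.15, standard error 0.16, limma adjusted p = 0.787), a measure that does not resolve the removed exon. Mitochondrial genes took 0.464% of fragments in control replicate 1 and 2.20% to 3.74% in the other 7 libraries. Spermatocyte markers averaged from 1.31 FPKM for Ccna1 to 418 FPKM for Ldhc, with 267 to 451 FPKM of Hspa2 in the control libraries. The Sertoli cell gene Clu had 718 to 940 FPKM in the controls. Of 8 spermatid markers, 4 averaged under 0.1 FPKM, and the highest value of the sperm nuclear protein gene Prm1 was 0.580 FPKM. The spermatid markers Spaca1 and Tssk6 averaged 4.61 and 1.90 FPKM. Since whole testes were sequenced, fewer cells of a type and less RNA per cell cannot be told apart in any of the values given here.

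**Figure D1:**
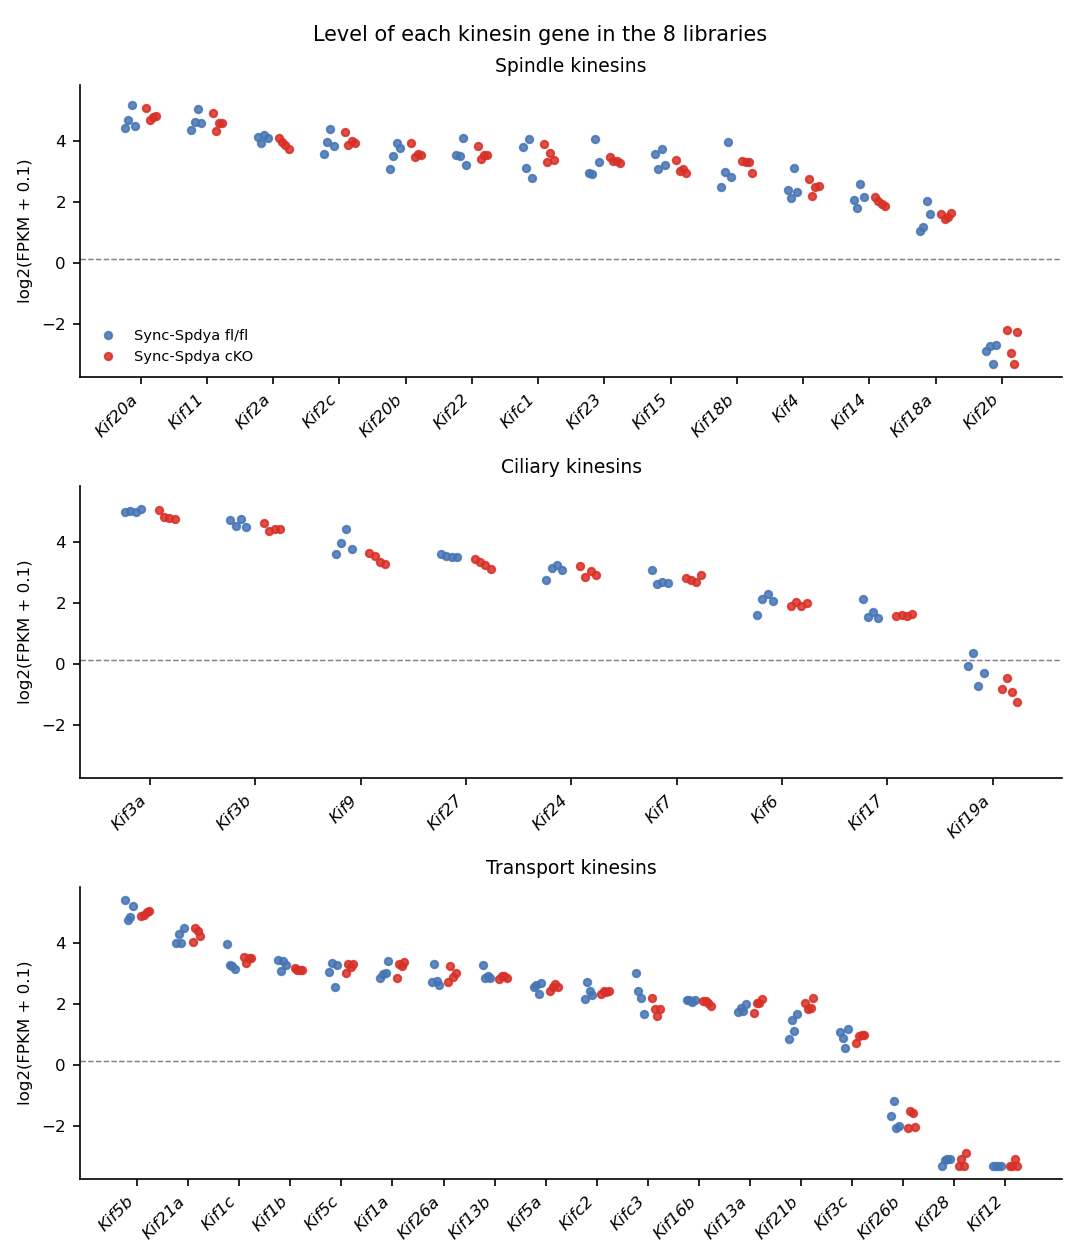
Level of the 41 kinesin genes as log2(FPKM + 0.1), grouped by role and ordered by mean level, with 1 point per library (blue, 4 control; red, 4 cKO). The dashed line marks 1 FPKM. Both group means of 5 genes lie below it, though Kif19a had 1.17 FPKM in control replicate 2. The points of the 2 groups overlap in all but 2 of the 36 tested genes.

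No kinesin gene was called differentially expressed between control and cKO testes in the fit used here. In limma fits on log2(FPKM + 0.1), 0 of 36 had an adjusted p below 0.05, where 0.0165% of all 12141 tested genes were called at that threshold with an absolute log2 fold change above 1. The lowest adjusted p of a kinesin was 0.229. At an unadjusted p below 0.05 there were 3 kinesins, or 8.33%, beside 10.9% of all tested genes, and voom on the recovered fragments also gave 0 by adjusted p and 3 without adjustment. One of the 3 was higher in cKO (background 5.89%) and 2 were lower (background 5%). The groups did not overlap in 2 kinesins, or 5.56%, beside 6.24% of all tested genes. The kinesins passed these thresholds about as often as genes in general.

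Over the 36 genes the log2 fold change was above 0 in 17 and below 0 in 19, with a median of -0.01, where 52.0% of all tested genes were above 0 with a median of 0.01. By role the median was 0.04 for spindle kinesins (8 above 0, 5 below), -0.14 for ciliary kinesins (1 above, 7 below) and 0.00 for transport kinesins (8 above, 7 below). Standard errors ran from 0.10 to 0.27, and the 95% interval of 33 genes included 0. Rescaling to TPM moved the median of all tested genes to 0.09, and against that the medians were 0.12, -0.06 and 0.08. On the TPM scale 24 kinesins were above 0 and 12 below, beside 8177 and 3964 of all tested genes, with 3 ciliary members above and 5 below. The ciliary median was the lowest of the 3 under both scalings.

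**Figure D2:**
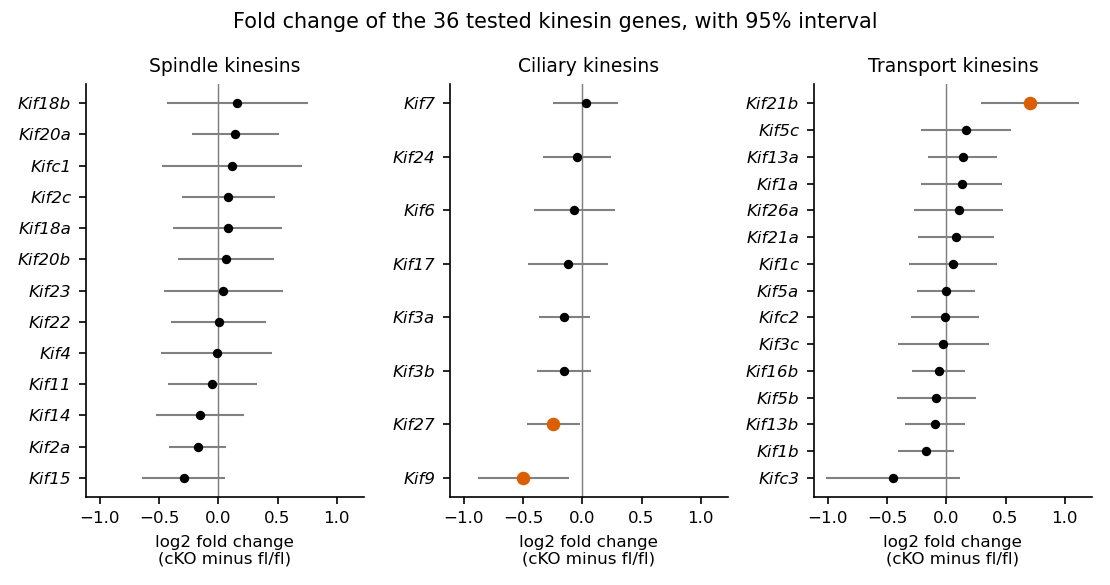
Log2 fold change (cKO minus control, on log2(FPKM + 0.1)) of the 36 tested kinesin genes by role, with the 95% interval of the limma fit over 4 against 4 libraries. Orange points mark the 3 genes with an unadjusted p below 0.05 (Kif21b, Kif27 and Kif9), and the intervals of the other 33 cross 0.

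Promoter sequences of the spindle and ciliary genes are shown because the spindle genes moved together between single libraries, as described further on. RefSeq windows of GRCm38.p6, from 250 bases before to 50 bases after a RefSeq start, were matched by symbol for 32 of the 41 genes. In Kif14, Kif2c, Kif17, Kif27 and 1 window of Kif1a that start lies well inside the gene interval of the expression values. The interval of Kif17 begins at 138250435, and its window printed below at 138262141. They were searched on both strands for TTTGAA, the core of the cell cycle genes homology region, for CCAAT, the box bound by NF-Y, and for GTTGCC, part of the X-box bound by RFX factors at ciliary genes. CCAAT and GTTGCC can share letters, and these motifs were picked after the expression values were seen. TTTGAA was found in 10 of 13 spindle genes (76.9%), 1 of 8 ciliary genes and 2 of 11 transport genes, and in 20.2% of the 27025 genes with a window. CCAAT was found in 8 of 13, 5 of 8 and 2 of 11, against 41.1% of all genes. The counts for GTTGCC were 3 of 13, 4 of 8 and 3 of 11, against 14.1%. All matches of Kif14, Kif2c, Kif17 and Kif27, and the TTTGAA of Kif1a, lie at such inner starts. A match describes the letters in the window and is not a measured binding site.

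The windows of 6 spindle genes that hold TTTGAA close to the start are printed from 110 bases before the start to the first 10 bases of the transcript, 5′ to 3′ on the gene's strand, with every match to the 3 motifs on either strand in capitals.
Kif11, chr19:37376272-37376391, plus strand: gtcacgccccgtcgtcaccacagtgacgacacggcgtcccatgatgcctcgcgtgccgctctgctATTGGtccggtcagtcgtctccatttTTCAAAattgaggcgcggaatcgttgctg
Kif22, chr7:127042411-127042530, minus strand: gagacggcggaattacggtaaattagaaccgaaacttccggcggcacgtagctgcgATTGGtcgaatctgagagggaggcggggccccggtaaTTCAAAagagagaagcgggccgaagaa
Kif15, chr9:122950971-122951090, plus strand: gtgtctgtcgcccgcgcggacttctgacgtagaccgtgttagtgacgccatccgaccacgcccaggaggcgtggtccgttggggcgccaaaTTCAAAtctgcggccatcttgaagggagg
Kif18b, chr11:102925115-102925234, minus strand: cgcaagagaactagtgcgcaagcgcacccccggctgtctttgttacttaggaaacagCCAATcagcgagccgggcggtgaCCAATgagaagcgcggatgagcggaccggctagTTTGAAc
Kif23, chr9:61946790-61946909, minus strand: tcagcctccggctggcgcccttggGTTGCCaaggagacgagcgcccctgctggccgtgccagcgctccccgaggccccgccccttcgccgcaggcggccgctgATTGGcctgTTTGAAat
Kifc1, chr17:33890624-33890743, minus strand: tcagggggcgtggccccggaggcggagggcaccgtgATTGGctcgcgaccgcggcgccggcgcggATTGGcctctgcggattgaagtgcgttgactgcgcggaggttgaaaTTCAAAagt
In Kif11, Kif22, Kif18b, Kif23 and Kifc1 a CCAAT box lies before TTTGAA in the printed stretch, and in Kif15 no CCAAT does. Kif11 is the motor that pushes spindle poles apart, and Kif15 can stand in for it. The 3 ciliary windows below have GTTGCC in capitals, and that of Kif3a also has a CCAAT box.
Kif3a, chr11:53567259-53567378, plus strand: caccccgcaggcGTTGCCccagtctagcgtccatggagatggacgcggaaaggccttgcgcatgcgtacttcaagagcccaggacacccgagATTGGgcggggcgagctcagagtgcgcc
Kif17, chr4:138262141-138262260, plus strand: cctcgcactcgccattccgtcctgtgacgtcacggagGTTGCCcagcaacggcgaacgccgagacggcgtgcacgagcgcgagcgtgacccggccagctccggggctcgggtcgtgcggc
Kif9, chr9:110476884-110477003, plus strand: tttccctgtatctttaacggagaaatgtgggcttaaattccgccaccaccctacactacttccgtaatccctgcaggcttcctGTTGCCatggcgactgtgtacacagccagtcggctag
In Kif9, whose values are among the 3 with an unadjusted p below 0.05, the GTTGCC of the window printed lies 27 bases before the start.

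The spindle kinesins were among the better expressed members. Kif20a (ENSMUSG00000003779), which works at the midzone in cytokinesis, had 21.5, 25.4, 35.9 and 22.6 FPKM in the control libraries and 33.7, 25.5, 27.6 and 27.9 FPKM in the cKO libraries. The highest value was that of control replicate 3, the groups overlapped, and the log2 fold change was 0.14 ± 0.17 (SE, n = 4 per group, limma adjusted p = 0.806). Kif11 (ENSMUSG00000012443) had 20.5, 24.6, 33.2 and 23.8 FPKM in the controls and 30.5, 19.8, 24.0 and 23.8 FPKM in the cKO libraries. Again control replicate 3 was highest and cKO replicate 1 second, and the log2 fold change was -0.05 ± 0.17 (limma adjusted p = 0.939). Kif2a (ENSMUSG00000021693), which takes microtubule ends apart, varied less, with 17.3, 15.3, 18.4 and 16.9 FPKM in the controls and 17.2, 15.5, 14.4 and 13.3 FPKM after deletion. Its groups overlapped and its log2 fold change was -0.17 ± 0.11 (limma adjusted p = 0.617).

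Kif4 (ENSMUSG00000034311, chromosome X of GRCm38, 100625737 to 100727214), a chromosome-bound motor that shapes chromosomes and the midzone, is the X-linked member. It had 5.08, 4.31, 8.62 and 4.88 FPKM in the control libraries and 6.57, 4.45, 5.45 and 5.58 FPKM in the cKO libraries. The groups overlapped, with control replicate 3 highest and 3 cKO libraries above the other 3 controls. Its log2 fold change was -0.01, with a 95% interval from -0.48 to 0.45 (limma adjusted p = 0.986), and it was 0.01 after centring on autosomal medians, 0.07 on the TPM scale and 0.20 without control replicate 3, so no direction can be given. Kif4 overlaps Pdzd11 on the opposite strand by 832 bases, and strand use in counting is not given in the sources used here.

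The other spindle members spanned 2.79 FPKM on average for Kif18a to 15.95 FPKM for Kif2c, and none had an unadjusted p below 0.05. Kif15 had the lowest log2 fold change, with 11.7, 8.39, 13.1 and 9.23 FPKM in the controls against 10.3, 8.02, 8.34 and 7.58 FPKM (log2 fold change -0.29 ± 0.16, limma adjusted p = 0.554). Kif18b, a regulator of microtubule plus ends, had the highest, at 0.16 ± 0.27 (limma adjusted p = 0.870). For Kifc1, a motor that walks toward microtubule minus ends, fragments could be divided with its near copy Kifc5b, which had 7.87 to 15.4 FPKM, so its level is uncertain.

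The spindle kinesins varied together from library to library, a pattern noticed in the values and given without a test. In control replicate 3 all 13 tested spindle members exceeded each of the other 3 controls, where 21.8% of all tested genes did. In 12 of the 13 it was the highest of all 8 libraries (16.1% of all tested genes), and in the 13th, Kif20b, cKO replicate 1 was highest, at 15.2 FPKM against 15.1 FPKM. Over the mean of the other controls the median excess was 1.55-fold, from 1.11-fold for Kif2a to 2.27-fold for Kif18b. Kif18b had 5.53, 7.84, 15.3 and 6.87 FPKM in the 4 controls and 9.93, 9.82, 9.76 and 7.57 FPKM in the cKO libraries. Kif23, which bundles midzone microtubules, had 7.66, 7.37, 16.7 and 9.90 FPKM in the controls and 11.1, 10.03, 9.92 and 9.51 FPKM after deletion. Both genes show 1 control above every other library.

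Within the cKO group, replicate 1 was the highest of the 4 libraries in 12 of 13 spindle members. The summed level of the 14 spindle kinesins was 140.8, 145.2, 221.0 and 144.9 FPKM in the controls and 190.8, 145.5, 157.5 and 150.5 FPKM in the cKO libraries. Ciliary members exceeded the other controls in replicate 3 in 4 of 8 genes, and transport members in 0 of 15, with a median ratio of 0.838. The same control was above the others in 12 of 13 spindle partner genes that are not kinesins (median 1.42-fold) and in 4 of 6 markers of dividing cells, among them Mki67 with 15.9, 20.1, 54.1 and 27.7 FPKM in the controls. The other 2 of these markers, the replication genes Mcm2 and Mcm5, were instead lowest of all 8 libraries in that control, at 13.9 and 28.8 FPKM. Among the spermatogonium markers it was above the other controls in 3 of 9, and among the spermatocyte markers in 6 of 11. Stra8, a spermatogonium marker, had 5.92, 4.53, 19.8 and 12.9 FPKM in the controls and 2.03, 3.93, 2.93 and 4.70 FPKM after deletion. Its log2 fold change was -1.46 (limma adjusted p = 0.280), where 7 of the 9 spermatogonium markers were above 0. The part of dividing cells in the spindle kinesin values was not tested.

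**Figure D3:**
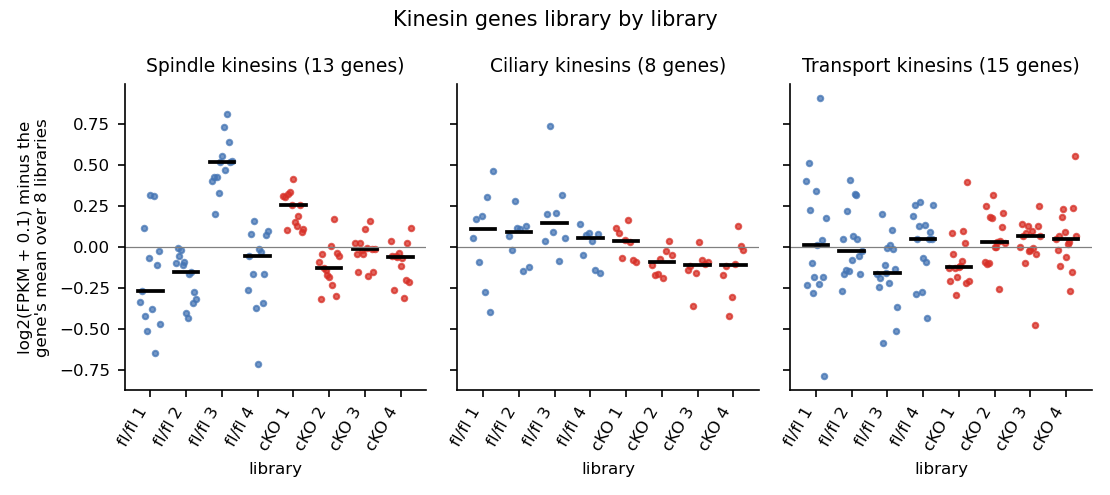
Each tested kinesin gene in each library, as log2(FPKM + 0.1) minus that gene's mean over the 8 libraries, by role (1 point per gene, black bar for the median, blue for control and red for cKO). Spindle genes sit highest in fl/fl replicate 3, with a median of 0.52, and next in cKO replicate 1, with 0.25, while transport medians in those libraries are -0.16 and -0.12.

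Leaving out these libraries changed the spindle values. All 13 tested spindle members were highest among the controls in replicate 3, so leaving it out had to raise their log2 fold changes. Without control replicate 3 the spindle median was 0.20, 10 of 13 members were above 0 and 3 had an unadjusted p below 0.05 in the higher direction, or 23.1% beside 3.96% of all genes tested in that fit. These were Kif18b (log2 fold change 0.46), Kif20a (0.30) and Kif23 (0.29), with limma adjusted p of 0.559, 0.682 and 0.700. Without cKO replicate 1 the median was -0.04 with 3 of 13 above 0, and without control replicate 1 it was -0.06 with 2 of 13 above 0. No direction of the spindle kinesins between the genotypes can be read from these data.

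The spread among control mice was wider than among cKO mice for most members, as for most genes. The median coefficient of variation was 21.4% in the controls and 10.6% in the cKO libraries over the 36 genes, and it was larger in the controls for 31 of them, or 86.1%. Over all 12141 tested genes the medians were 17.2% and 9.43%, and it was larger in the controls for 81.0%. Among spindle kinesins the medians were 25.7% and 13.1%, among ciliary kinesins 15.01% and 8.79%, and among transport kinesins 17.7% and 9.25%. Control replicate 1 stood furthest apart over all tested genes. Per gene it differed from the other controls by 82.7 to 108.9 times sampling noise. The other controls differed from each other by 16.4 to 27.0 times, and the cKO libraries by 4.61 to 29.7 times. The difference in spread between the groups was not tested.

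Among the ciliary kinesins, Kif3a and Kif3b form with the Kifap3 protein the motor that carries cargo toward the tip of cilia and flagella. Kif3a (ENSMUSG00000018395) had 31.7, 32.02, 31.3 and 33.7 FPKM in the control libraries and 33.1, 28.3, 27.7 and 27.1 FPKM in the cKO libraries. Kif3b (ENSMUSG00000027475) had 26.0, 22.9, 26.7 and 22.4 FPKM in the controls and 24.6, 20.6, 21.4 and 21.3 FPKM after deletion. In both genes 3 cKO libraries lay below all controls and replicate 1 lay among them. Log2 fold changes were -0.15 ± 0.10 for Kif3a and -0.16 ± 0.10 for Kif3b (limma adjusted p = 0.619 and 0.638). Kifap3 had 19.97 to 23.9 FPKM in the controls and 16.5 to 25.2 FPKM in the cKO libraries. When cKO replicate 1 was left out, the log2 fold changes of Kif3a, Kif3b and Kifap3 were -0.22, -0.21 and -0.26 (limma adjusted p = 0.365, 0.443 and 0.375). The groups then no longer overlapped, which had to follow, because cKO replicate 1 alone had made the overlap. In that fit 15.4% of all tested genes did not overlap, 7.81% in the lower direction.

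Kif9 (ENSMUSG00000032489, chromosome 9 of GRCm38, 110476958 to 110525179), a motor of the central apparatus in motile cilia and the sperm tail, had 12.1, 15.7, 21.6 and 13.6 FPKM in the control libraries. In the cKO libraries it had 12.4, 11.5, 10.1 and 9.65 FPKM. The groups overlapped only through control replicate 1 and cKO replicate 1, and control replicate 3 was highest. The mean was 15.8 ± 4.16 FPKM in the controls and 10.9 ± 1.26 FPKM after deletion (SD, n = 4), and the log2 fold change was -0.50 ± 0.17 with an unadjusted limma p of 0.0158 and an adjusted p of 0.341. With array weights, which give control replicate 1 a weight of 0.161, the log2 fold change was -0.66 and the adjusted p 0.0282. In that fit 454 of 12141 genes had an adjusted p below 0.05. On the TPM scale it was -0.42 with an unadjusted limma p of 0.0528, and without control replicate 3 it was -0.34 (limma adjusted p = 0.662).

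Kif27 (ENSMUSG00000060176, chromosome 13 of GRCm38, 58287502 to 58359122), a motor known from motile cilia, had 11.998, 11.4, 11.2 and 11.2 FPKM in the controls and 10.8, 10.02, 9.40 and 8.504 FPKM in the cKO libraries. All 4 controls were above all 4 cKO libraries, as in 2.59% of all tested genes in that direction. The log2 fold change was -0.24 ± 0.10 with an unadjusted limma p of 0.0348 and an adjusted p of 0.426. On the TPM scale the groups overlapped and the unadjusted limma p was 0.191. A stretch of 11644 bases of Kif27 is also covered by the antisense gene Gm26555 at 1.67 FPKM on average, and the 2 cannot be told apart if strand was not used.

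Kif24, which trims centriole microtubules, averaged 8.23 FPKM in the controls and 7.96 FPKM after deletion. Kif7, a regulator of Hedgehog signalling at the cilium tip, averaged 6.72 and 6.81 FPKM. Kif6 averaged 4.02 and 3.78 FPKM and Kif17, a second ciliary motor that lies within the same interval as Sh2d5 for 10898 bases, 3.23 and 2.91 FPKM. Adjusted limma p of these 4 genes ran from 0.819 to 0.954. Kif19a, which limits the length of motile cilia, was below the filter with 0.844, 1.17, 0.503 and 0.705 FPKM in the controls and 0.456, 0.616, 0.423 and 0.318 FPKM in the cKO libraries. With the filter lowered to a mean of 0.1 FPKM its log2 fold change was -0.68 ± 0.26 (limma adjusted p = 0.397), and it is named after its values were seen.

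The summed level of the 9 ciliary kinesins was 104.9, 105.0, 114.9 and 102.8 FPKM in the control libraries and 103.8, 91.6, 90.0 and 88.7 FPKM in the cKO libraries, so that replicate 1 of the deleted group again lay within the control range. The sum over 12 spermatocyte markers was 1280 to 1950 FPKM in the controls and 1072 to 1696 FPKM after deletion, the highest cKO value being that of replicate 1. Ldhc and Hspa2 weigh most in this sum, at 418 and 351 FPKM on average. As the median log2 deviation from each gene's mean over the 8 libraries, the ciliary kinesins were highest in control replicate 3, at 0.15. The 11 tested spermatocyte markers were highest in cKO replicate 1, at 0.26. Of the 11 tested, 2 had a log2 fold change above 0, and the median was -0.19. Ldhc and Piwil1 were lower and Meiob higher at an unadjusted limma p below 0.05, and none passed adjustment. Over all tested genes 5% were lower and 5.89% higher at that threshold. The part of spermatocyte content in the ciliary values was not tested.

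**Figure D4:**
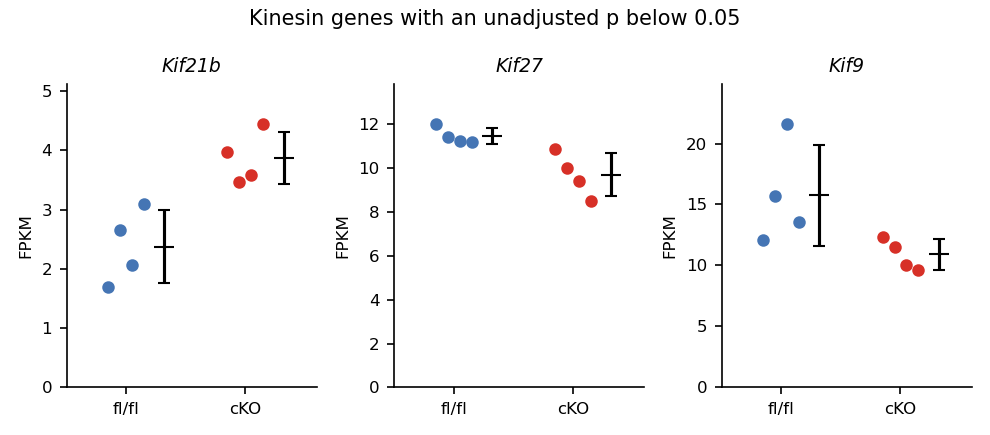
FPKM of Kif21b, Kif27 and Kif9 in each library (blue, 4 control; red, 4 cKO), with the mean and SD of each group in black. Kif21b libraries are all higher after deletion, Kif27 libraries all lower, and Kif9 groups overlap at 12.1 and 12.4 FPKM, while none of the 3 passed adjustment.

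Among the transport kinesins, Kif21b (ENSMUSG00000041642, chromosome 1 of GRCm38, 136131389 to 136177998), a motor studied mostly in neurons that restrains microtubule growth, had the lowest adjusted p of the family. It had 1.69, 2.65, 2.06 and 3.10 FPKM in the control libraries and 3.96, 3.47, 3.58 and 4.44 FPKM in the cKO libraries, on 270 to 936 fragments. The lowest cKO library was above the highest control, as in 3.64% of all tested genes in that direction. The means were 2.38 ± 0.62 FPKM in the controls and 3.86 ± 0.44 FPKM after deletion (SD, n = 4), with a log2 fold change of 0.71, a 95% interval from 0.29 to 1.12, an unadjusted limma p of 0.00357 and an adjusted p of 0.229. Over the libraries left out in turn the log2 fold change stayed between 0.56 and 0.84, and with array weights the adjusted p was 0.0535.

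The log2 fold change was above 0, as for Kif21b, in most tested markers of cells outside the germ line. These were 4 of 4 endothelial, 3 of 3 macrophage, 2 of 2 Leydig, 2 of 2 peritubular and 7 of 8 Sertoli markers, beside 52.0% of all tested genes. The direction was not particular to them. It was also above 0 in 7 of 9 spermatogonium, 2 of 2 spermatid and 4 of 6 dividing cell markers, but in 2 of 11 spermatocyte markers. The Sertoli median was 0.13. Of the markers outside the germ line that were below the filter, Tagln and Insl3 averaged lower after deletion and the others higher. The sum of 4 endothelial markers was 4.996, 9.95, 6.52 and 12.2 FPKM in the controls and 11.8, 11.2, 11.6 and 14.3 FPKM in the cKO libraries, and that of 4 macrophage markers 4.00, 6.55, 4.85 and 7.23 FPKM and then 6.57, 9.45, 7.98 and 8.65 FPKM. In both lists and in Kif21b control replicates 1 and 3 were the 2 lowest of the 8 libraries. The other lists were ordered differently, with peritubular markers lowest in control replicate 2 (43.7 FPKM, against 59.9 and 64.3 FPKM in replicates 1 and 3), Leydig markers at 15.6 to 16.3 FPKM in control replicates 1 to 3, and Sertoli markers second highest of 8 in control replicate 1, at 1617 FPKM. Of the tested genes, 2 of 4 endothelial, 1 of 3 macrophage (Csf1r), 1 of 2 Leydig (Hsd3b1) and 1 of 2 peritubular (Acta2) markers had an unadjusted limma p below 0.05 in the higher direction, 0 of 8 Sertoli markers did, and none passed adjustment. Over all tested genes 5.89% had such a p in that direction. The part of these cells in the Kif21b value was not tested.

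The most abundant cargo motor was Kif5b (ENSMUSG00000006740), a heavy chain of conventional kinesin, with 42.6, 26.8, 28.7 and 36.8 FPKM in the control libraries and 29.5, 30.3, 32.3 and 33.3 FPKM in the cKO libraries. The controls lay on both sides of the deleted group, and the log2 fold change was -0.08 ± 0.15 (limma adjusted p = 0.878). The related heavy chains Kif5c and Kif5a averaged 8.38 and 5.75 FPKM in the controls, and 9.24 and 5.73 FPKM after deletion. Kif21a (ENSMUSG00000022629), the paralog of Kif21b, had 16.1, 19.5, 15.9 and 22.5 FPKM in the controls and 16.3, 22.4, 20.8 and 18.6 FPKM after deletion, with a log2 fold change of 0.08 ± 0.14 (limma adjusted p = 0.874). Its level was several times that of Kif21b in every library, and its groups overlapped.

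Kif1c (ENSMUSG00000020821), of the kinesin-3 family of vesicle motors, had 15.4, 9.60, 9.44 and 8.81 FPKM in the controls and 11.4, 10.01, 11.3 and 11.3 FPKM in the cKO libraries. One control was above and the other 3 were below all 4 deleted libraries, and the log2 fold change was 0.06 ± 0.17 (limma adjusted p = 0.927). Without control replicate 1 it was 0.24 (limma adjusted p = 0.233). The groups then did not overlap, which had to follow, because that control alone had made the overlap. In that fit 8.29% of all tested genes did not overlap with cKO higher. Kif1b and Kif1a of the same family averaged 9.81 and 8.33 FPKM in the controls and 8.66 and 9.11 FPKM after deletion. The endosome motor Kif16b had the smallest spread, 4.06 to 4.25 FPKM in the controls.

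Kifc3, a minus-end directed motor linked to cell junctions, had 7.89, 5.22, 4.48 and 3.05 FPKM in the controls and 4.46, 3.46, 2.97 and 3.45 FPKM after deletion. Its log2 fold change of -0.45 ± 0.25 (limma adjusted p = 0.572) was -0.22 without control replicate 1. The other tested transport members, Kif26a, Kif13b, Kifc2, Kif13a and Kif3c, had log2 fold changes from -0.10 to 0.14 and adjusted limma p of 0.767 or more, and Kif26b, below the filter, stayed at 0.137 to 0.338 FPKM.

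Genes that work with kinesins were followed as a list of partners. The list also held 3 kinesin motors whose symbols fall outside the family rule, Cenpe, Kifc5b and Stard9. Of 41 partner genes tested, 1 had an unadjusted limma p below 0.05, or 2.44% beside the 10.9% of all tested genes, 0 passed adjustment, and the median log2 fold change was -0.02. The 1 gene was Dync1i1, an intermediate chain of cytoplasmic dynein, the motor that moves toward minus ends. It had 11.1, 10.9, 8.17 and 13.4 FPKM in the control libraries and 13.3, 13.6, 14.8 and 18.5 FPKM in the cKO libraries (log2 fold change 0.47 ± 0.16, limma adjusted p = 0.341), with an overlap between the highest control and the lowest deleted library. Of the other dynein and dynactin genes, Dctn4 did not overlap between the groups, with 8.54 to 11.7 FPKM in the controls and 11.9 to 12.3 FPKM after deletion (log2 fold change 0.18, limma adjusted p = 0.623). It was 1 of 41 partners in that direction, beside 3.64% of all tested genes.

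Among 12 light chains and cargo adaptors, which link motors to their loads, 4 had log2 fold changes above 0 and none an unadjusted p below 0.05. Klc2, the most abundant light chain, had 39.5 to 54.3 FPKM in the controls and 49.1 to 54.0 FPKM after deletion. Of 13 spindle partners, Numa1, which anchors spindle poles, had 39.9 to 41.7 FPKM in the controls and 35.3 to 38.8 FPKM after deletion without overlap (log2 fold change -0.13, limma adjusted p = 0.631). It was the only 1 of 41 partners without overlap in the lower direction, beside 2.59% of all tested genes. The mitotic kinase gene Plk1, a partner of the midzone motors, had 6.18, 13.1, 39.2 and 12.4 FPKM in the controls and 28.9, 21.4, 26.2 and 24.3 FPKM after deletion. Its 3 lower controls lay under all deleted libraries and control replicate 3 above them (log2 fold change 0.82 ± 0.44, limma adjusted p = 0.550), and it is named after its values were seen. Cenpe, a kinesin of the kinetochore whose symbol falls outside the family rule, had 8.36 to 15.03 FPKM in the controls and 10.8 to 13.1 FPKM after deletion.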

How the data were processed

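Paired-end RNA-seq was performed on the whole testis of 4 control and 4 cKO mice, 1 library per mouse. The authors deposited FPKM values for 54532 genes, made with the sequencing company's software. The aligner, counter and strand setting are not given in the sources used here, and the submitters' processing notes name GRCm38 and mm10. Gene coordinates matched GENCODE vM21 for 39 of 41 kinesins. Multiplied by gene length, 100% of the FPKM values above 0 were whole multiples of a smallest step (tolerance 0.02), which gave back the fragments. The study names DESeq2, which was not run here. At the same thresholds it reported more differentially expressed autosomal genes than the 2 of 12141 genes called here. A gene without a call is therefore not shown to be unchanged.

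log2(FPKM + 0.1) was tested with limma 3.58.1 in R 4.3.3 (lmFit, eBayes with trend), without covariates, over 12141 protein-coding genes with mean FPKM above 1 in both groups. Calls used the thresholds of the study, p below 0.05 after Benjamini-Hochberg adjustment together with a log2 fold change beyond 1 in either direction. Log2 fold changes on this scale understate changes of low genes. The fit was first tested on simulated data with known changes. The least different pair of libraries differed by 4.61 times sampling noise per gene, so each counted as 1 sample.

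Named with values were the 3 most abundant members of each role, members with an unadjusted p below 0.05 or without overlap, the X-linked Kif4, and partner genes with an unadjusted p below 0.05. Other genes named in the report were chosen after their values were seen. The members, roles and lists were chosen with earlier results of these data known. Alternatives were other pseudocounts, filters, scalings, weights, a replicate block, voom, and each library left out. Sequences came from RefSeq (GRCm38.p6).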

Additional observations from a re-analysis of the deposited data

Results flagged for a closer look

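In 72 groups of 4 libraries (36 kinesins in 2 groups), 8 had a library far from the other 3 by Dixon's ratio. About 3.6 would be expected if the groups were independent, but they share the same 8 libraries. The share over all tested genes is not given here, so no excess particular to kinesins can be read. Over all tested genes, control replicate 1 was the highest library in 34.2% and the lowest in 23.6%. Kif1c had 15.4 FPKM in control replicate 1, where the other controls had 8.81 to 9.60 FPKM, and 10.01 FPKM in cKO replicate 2, where the others had 11.3 to 11.4 FPKM. Control replicate 1 also stood apart in Kif7, at 8.35 FPKM against 6.08 to 6.35 FPKM, and in Kif13b, at 9.50 FPKM against 7.07 to 7.46 FPKM. Kif26a had 9.86 FPKM in control replicate 2, against 6.10 to 6.64 FPKM. The gap of Kif16b was small in size, 4.06 FPKM in control replicate 3 against 4.22 to 4.25 FPKM. Among cKO libraries, Kif18b had 7.57 FPKM in replicate 4 against 9.76 to 9.93 FPKM, and Kif3c had 1.53 FPKM in replicate 1 against 1.82 to 1.88 FPKM.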

How the results depend on the processing

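The count of kinesins that differed by over 1 on the log2 scale at an adjusted p below 0.05 was 0 under every alternative run. By adjusted p alone, Kif9 passed with array weights, at an adjusted p of 0.0282. Of the values of the named genes under alternatives 216 kept their direction and 11 reversed, none of the reversed ones called. The number at an unadjusted p below 0.05, 3 as reported, was 1 on the TPM scale and 5 (13.9%) with array weights or the replicate block, where 10.4%, 20.9% and 14.6% of all genes passed. The number without overlap, 2 as reported, was 1 on the TPM scale and 1 with a mean FPKM above 5. The ciliary median was -0.061 on the TPM scale, and the transport median 0.10 with array weights. Reversed values were Kif4 at 0.0082 after median centring and 0.065 on the TPM scale, Kif11 at 0.027 on the TPM scale, and Kif20a at -0.0064 and Kif5b at 0.10 with array weights. With 1 library left out, the ranges were 2 to 5 kinesins at an unadjusted p below 0.05 (5 without control replicate 3 or cKO replicate 1, where 7.11% and 12.8% of all genes passed), 2 to 7 without overlap (6 without control replicate 1, 4 without its replicate 3 and 7 without cKO replicate 1, or 16.7%, 11.1% and 19.4% beside 13.3%, 7.94% and 15.4% of all genes), and 0 to 3 partner genes (0 without cKO replicate 4, 2 without control replicate 2 or 4, 3 without control replicate 3 or cKO replicate 1). Left-out ranges that crossed 0 were -0.16 to 0.082 for Kif11, -0.13 to 0.20 for Kif4, -0.19 to 0.038 for Kif5b and -0.025 to 0.24 for Kif1c, and the causes were not tested.

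Deviations of same-numbered libraries correlated at 0.288, 0.131, 0.0757 and 0.406, and 3 of 4 controls correlated best with their own number. The labels give no litter, so the numbers were not taken as pairs. In the replicate block 5 kinesins had an unadjusted p below 0.05 (Kif15 and Kifc3 in addition), a share below that of all genes, 2 partner genes did, and 0 kinesins passed adjustment, with Kif21b at an adjusted p of 0.139. At this depth, members under 1 FPKM rested on at most 90 fragments in a library.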
